A study of Mus musculus with 8 samples.

Results

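Branched-chain amino acid (BCAA) breakdown was examined through 10 of its enzymes and regulators, namely Bcat2, Bckdha, Bckdhb, Dbt, Bckdk, Ivd, Mccc1, Mccc2, Pcca and Pccb. They were taken by gene symbol, with no cut on their values, though earlier results of these data were known at the choice. All 10 were among the 8562 genes measured. The tissue was epididymal white adipose tissue (eWAT) of male mice aged 6 weeks. HuR-FKO mice (AdipoQ-Cre;HuRf/f) lack the RNA-binding protein HuR, encoded by Elavl1, in cells that express adiponectin, and Ctrl mice were littermates with the same floxed alleles (HuRf/f) and no Cre. Other cells of the tissue keep HuR in both groups. Tissue of 3 mice was pooled per replicate, and each of the 2 pools per genotype was split in 2 shares, 1 sequenced for mRNA and 1 for ribosome-protected fragments (RPF), the stretches of mRNA that ribosomes cover. The labels of the RPF samples also carry an antibody against HuR, which has no place in ribosome profiling, and the libraries were taken as RPF from their titles, protocols and the study's methods. Levels are in RPKM, reads on the coding sequence scaled to sequence length and library total, so levels of different genes are compared per length. In bulk tissue, fewer cells of a type and less RNA per cell cannot be told apart.

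Leucine, isoleucine and valine are broken down in mitochondria, and differentiated fat cells are known to take up and oxidise them. Bcat2, the mitochondrial aminotransferase, first moves the amino group to a keto acid acceptor. The branched-chain ketoacid dehydrogenase complex (BCKDH) then removes carbon dioxide in the step that commits the carbon to breakdown. It consists of an E1 part made of Bckdha and Bckdhb, an E2 core made of Dbt, and the shared E3 subunit Dld, and it is switched off by the kinase Bckdk and on by the phosphatase Ppm1k. The leucine branch continues through Ivd and the biotin-dependent carboxylase of Mccc1 and Mccc2. Isoleucine and valine yield propionyl-CoA, which the biotin-dependent carboxylase of Pcca and Pccb passes on towards succinyl-CoA.

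The mRNA libraries held 5223721 to 8060054 coding reads and the RPF libraries 531966 to 1311977. Elavl1 had 41.6 and 43.3 RPKM in HuR-FKO and 40.8 and 49.8 RPKM in Ctrl mRNA (limma log2 change -0.08 ± 0.13 SE, adjusted p = 0.695). In RPF it had 56.0 and 63.3 RPKM in HuR-FKO and 64.6 and 81.8 RPKM in Ctrl (limma, -0.28 ± 0.20, adjusted p = 0.668). Reads over the whole coding sequence do not check the labels, since the deleted part was not counted apart. All 9 adipocyte markers were measured, with summed mRNA levels of 71330 to 74074 RPKM in HuR-FKO and 60192 to 61623 RPKM in Ctrl. Of the 9, 1 fell and 0 rose in mRNA, with a median log2 change of 0.02. Of the macrophage markers, 10 were measured and 4 rose in mRNA, with sums of 2461 to 2704 RPKM in HuR-FKO and 2115 to 2263 RPKM in Ctrl. Of the 6 red blood cell markers, 5 fell, with sums of 3605 to 5984 RPKM in HuR-FKO and 8331 to 12267 RPKM in Ctrl. Endothelial marker sums were 837 to 929 RPKM in HuR-FKO and 634 to 1066 RPKM in Ctrl, and none of the 7 passed, nor did any of 7 mesothelial or 6 fibroblast and progenitor markers. The part of these cell types in the results below was not tested.

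In mRNA, 2 of the 10 BCAA enzymes passed the test (limma, Benjamini-Hochberg adjusted p under 0.05 over all genes), namely Pcca and Pccb, and both were lower in HuR-FKO. Over all 8562 genes, 14.0% passed in mRNA, 6.54% in the lower direction. In RPF none of the 10 passed, where 0.444% of all genes did. In translational efficiency (TE), taken as RPF over mRNA, none passed and none had an unadjusted p under 0.05, while 0.0117% of all genes passed. The HuR-FKO and Ctrl libraries did not overlap for 9 of the 10 in mRNA, against 60.3% of all genes, and for 7 of the 10 in RPF, against 41.8% of all genes. Replicate libraries correlated across genes at r = 0.989 to 0.991 in mRNA and 0.970 to 0.974 in RPF. Libraries of different genotypes correlated at 0.971 to 0.974 in mRNA, below the replicates, and at 0.956 to 0.972 in RPF, which reached into the range of the replicates. The median log2 change of the 10 was -0.16 in mRNA, 0.02 in RPF and 0.18 in TE, beside 0.02, -0.05 and -0.07 over all genes.

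The enzymes were well expressed in fat. In Ctrl mRNA they ranged from 62.1 ± 10.4 RPKM for Dbt to 290 ± 15.4 RPKM for Bcat2 (SD, n = 2 libraries), the 71.5th and 94.7th percentiles of all genes. Bckdha, Ivd and Pccb followed Bcat2 at 239, 216 and 212 RPKM in Ctrl, and the libraries of neighbours in that order overlapped among these 3. Mccc1 and Bckdhb, at 137 and 127 RPKM, and Mccc2 and Pcca, at 96.8 and 92.5 RPKM, also overlapped pairwise. Bckdk was at 71.2 ± 1.65 RPKM in Ctrl, above both Dbt libraries.

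**Figure D1:**
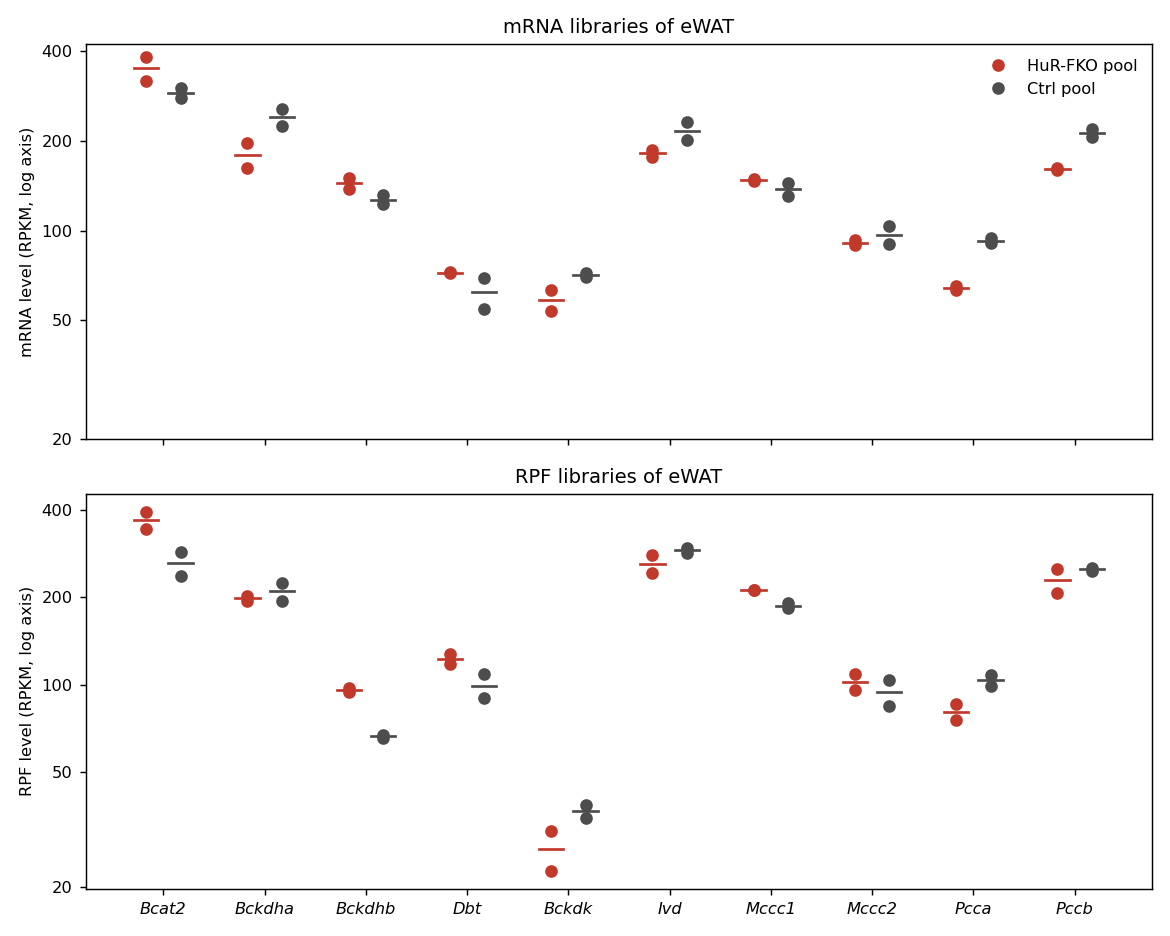
Level of each enzyme in mRNA (top) and RPF (bottom) libraries, in RPKM on a log axis, with points for pools and lines for the mean of 2 pools. Pcca and Pccb mRNA lay lower in both HuR-FKO pools, and Bckdhb lay higher in HuR-FKO in both assays.

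The 2 members that passed are the subunits of propionyl-CoA carboxylase. Pcca (NM_144844), its biotin-carrying alpha subunit, had 63.4 and 65.3 RPKM in HuR-FKO mRNA, against 94.3 and 90.7 RPKM in Ctrl mRNA. Its log2 change was -0.52 ± 0.11 (SE, adjusted p = 0.0165), 0.695 of the Ctrl level. Pccb (NM_025835), the carboxyltransferase beta subunit, had 160 and 162 RPKM in HuR-FKO mRNA, against 218 and 206 RPKM in Ctrl mRNA, a log2 change of -0.40 ± 0.11 (adjusted p = 0.0422). Both subunits were thus lower in each HuR-FKO library than in either Ctrl library, and the spread within HuR-FKO was small, with SDs of 1.33 RPKM for Pcca and 1.89 RPKM for Pccb. The Pcca call ended without HuR-FKO replicate 1 (-0.50, adjusted p = 0.114), without HuR-FKO replicate 2 (-0.54, adjusted p = 0.107) and in a fit shared by all 8 libraries (adjusted p = 0.0845). The Pccb call ended in the same 3 settings (adjusted p = 0.180, 0.176 and 0.159), with Ctrl replicate 1 left out (-0.35, adjusted p = 0.101), with quantile normalization (-0.33, adjusted p = 0.0768) and without the mean-dependent prior of limma (adjusted p = 0.0691).

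In the RPF libraries, Pcca had 75.7 and 85.6 RPKM in HuR-FKO and 98.9 and 108 RPKM in Ctrl, which did not overlap. The log2 change was -0.36 ± 0.18 (SE, adjusted p = 0.517). Pccb had 251 and 207 RPKM in HuR-FKO RPF, and 252 and 247 RPKM in Ctrl RPF, so that 1 HuR-FKO library lay at the Ctrl level. Its log2 change was -0.13 ± 0.16 (adjusted p = 0.816). TE changes were 0.16 ± 0.19 for Pcca and 0.27 ± 0.18 for Pccb (adjusted p = 0.840 and 0.702), so a difference between the mRNA and RPF changes was not detectable in these libraries.

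As the members that passed together, Pcca and Pccb are shown by their promoter windows, 250 bases before and 50 after the start site, from RefSeq (GRCm38.p6). Capitals mark GGGCGG or CCAAT on either strand. The third motif searched, CACGTG, was in neither, and no 2 motifs overlapped in these windows.
Pcca, chr14:122534078-122534377, plus strand: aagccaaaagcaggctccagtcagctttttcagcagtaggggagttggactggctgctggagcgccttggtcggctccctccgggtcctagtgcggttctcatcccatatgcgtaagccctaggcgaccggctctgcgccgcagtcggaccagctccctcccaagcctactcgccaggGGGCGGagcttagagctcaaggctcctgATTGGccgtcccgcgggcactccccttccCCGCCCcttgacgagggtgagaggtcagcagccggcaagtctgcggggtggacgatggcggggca
Pccb, chr9:101034835-101035134, minus strand: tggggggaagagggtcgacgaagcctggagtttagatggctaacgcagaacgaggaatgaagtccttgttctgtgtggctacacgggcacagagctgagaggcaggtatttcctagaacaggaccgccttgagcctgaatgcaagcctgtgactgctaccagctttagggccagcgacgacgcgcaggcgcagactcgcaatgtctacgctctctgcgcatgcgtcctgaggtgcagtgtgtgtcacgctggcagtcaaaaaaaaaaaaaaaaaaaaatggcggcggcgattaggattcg
The Pcca window held GGGCGG at 2 places, 72 and 15 bases before the start site, and CCAAT once, and the Pccb window held none of the 3 motifs. Of 32851 mouse promoter windows, 35.7% held GGGCGG, 37.4% CCAAT and 7.15% CACGTG. Over the 8073 windows of measured genes the shares were 64.7%, 36.7% and 10.4%. A window was found for 9 of the 10 enzymes, of which 2 held GGGCGG, 6 CCAAT and 1 CACGTG. For each enzyme the window nearest to the transcript used was taken, while the shares above count every window of a gene. The start sites of the Bcat2 and Bckdha windows lay 1590 and 220 bases from the start of the transcript used.

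HuR is known to bind AU-rich and U-rich stretches in the 3′ UTR of mRNAs, so the pentamer ATTTA was counted in the GENCODE M21 transcripts of the enzymes. It occurred in 5 of the 10, and in 66.4% of the 8204 measured transcripts with a 3′ UTR. Pcca held 2 in a 3′ UTR of 389 bases, and Pccb held none in 653 bases. The Pcca matches are shown with 10 bases on either side where the transcript allows, the pentamer in capitals.
Pcca, base 83 after the stop codon: ttgcgcaagcATTTAcaggagcact
Pcca, base 375 after the stop codon: ttctttaaaaATTTAtataaattcc
Dbt held 4, Bckdk 2, and Mccc1 and Mccc2 1 each, and none of these passed the test in any comparison. The match is a description of the letters and was not tested as a binding site.

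Bcat2, which opens the pathway, had the highest mRNA level of the 10 in every library. It had 383 and 316 RPKM in HuR-FKO mRNA and 300 and 279 RPKM in Ctrl mRNA, with a log2 change of 0.27 ± 0.13 (SE, adjusted p = 0.190). In RPF it had 345 and 395 RPKM in HuR-FKO and 287 and 237 RPKM in Ctrl, a log2 change of 0.50 ± 0.16 (adjusted p = 0.313). Each HuR-FKO library was thus above each Ctrl library in both assays, although neither change passed over all genes. The mRNA change was 0.13 without HuR-FKO replicate 1, and 0.40 with the other HuR-FKO library left out instead (adjusted p = 0.625 and 0.182), and the RPF change ranged from 0.36 to 0.64 with 1 pool left out. Once the trend along transcript length and coding G+C had been taken out of each library, the mRNA change was 0.43 and passed (adjusted p = 0.0306), and the RPF change was 0.55 (adjusted p = 0.149). The TE change was 0.23 ± 0.21 (adjusted p = 0.771).

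Within the BCKDH complex, the E1 subunits lay in opposite directions. Bckdha, the E1 alpha subunit that the kinase phosphorylates, had 197 and 162 RPKM in HuR-FKO mRNA, against 255 and 224 RPKM in Ctrl mRNA. Its log2 change of -0.42 ± 0.13 missed the threshold (adjusted p = 0.0611). It passed with voom on the recovered reads (-0.42, adjusted p = 0.0346), with the replicate number as a block (-0.42, adjusted p = 0.00195) and with Ctrl replicate 2 left out (-0.51, adjusted p = 0.0206), and it was -0.22 after correction for transcript length and G+C content (adjusted p = 0.203). In RPF, Bckdha had 202 and 195 RPKM in HuR-FKO and 225 and 195 RPKM in Ctrl, which overlapped (log2 change -0.07 ± 0.15, adjusted p = 0.906).

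Bckdhb, the E1 beta subunit, had 138 and 150 RPKM in HuR-FKO mRNA and 122 and 132 RPKM in Ctrl mRNA (log2 change 0.18 ± 0.12 SE, adjusted p = 0.327). In RPF it had 94.5 and 97.1 RPKM in HuR-FKO, against 67.2 and 65.6 RPKM in Ctrl. This was 1.44 times the Ctrl level, with a log2 change of 0.52 ± 0.17 (adjusted p = 0.331). The HuR-FKO libraries were above the Ctrl libraries in both assays. The SD of its RPF level, 1.85 RPKM in HuR-FKO and 1.09 RPKM in Ctrl, was smaller than counting error alone. These RPF levels rested on 120 and 50 reads in HuR-FKO and 75 and 46 reads in Ctrl. Their exact Poisson 95% intervals were 78.3 to 113 and 72.1 to 128 RPKM in HuR-FKO. In Ctrl they were 52.8 to 84.2 and 48.1 to 87.6 RPKM, which overlapped those of HuR-FKO.

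Dbt, the E2 core, had 72.4 and 72.0 RPKM in HuR-FKO mRNA and 69.5 and 54.8 RPKM in Ctrl mRNA (log2 change 0.22 ± 0.14 SE, adjusted p = 0.294). In RPF it had 127 and 118 RPKM in HuR-FKO and 108 and 89.7 RPKM in Ctrl (log2 change 0.31 ± 0.18, adjusted p = 0.588). Its libraries did not overlap between genotypes, but the gap to the nearer Ctrl library was smaller than the spread between the 2 Ctrl libraries in both assays. The mRNA change was 0.05 without Ctrl replicate 2 and 0.39 without Ctrl replicate 1 (adjusted p = 0.872 and 0.0697), and the RPF change ranged from 0.18 to 0.45 with 1 pool left out.

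Bckdk, the kinase that turns the complex off, was lower in each HuR-FKO library. It had 53.8 and 63.2 RPKM in HuR-FKO mRNA and 70.0 and 72.4 RPKM in Ctrl mRNA, a log2 change of -0.28 ± 0.12 (SE, adjusted p = 0.155), and -0.17 without HuR-FKO replicate 1. In RPF it had 31.4 and 22.8 RPKM in HuR-FKO and 38.5 and 34.6 RPKM in Ctrl, a log2 change of -0.43 ± 0.25 (adjusted p = 0.600) that ranged from -0.66 to -0.21 with 1 pool left out. The lowest of these values rested on 15 reads, with an exact Poisson 95% interval of 12.7 to 37.6 RPKM that covers counting error only, so its RPF difference was not resolved at this depth.

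**Figure D2:**
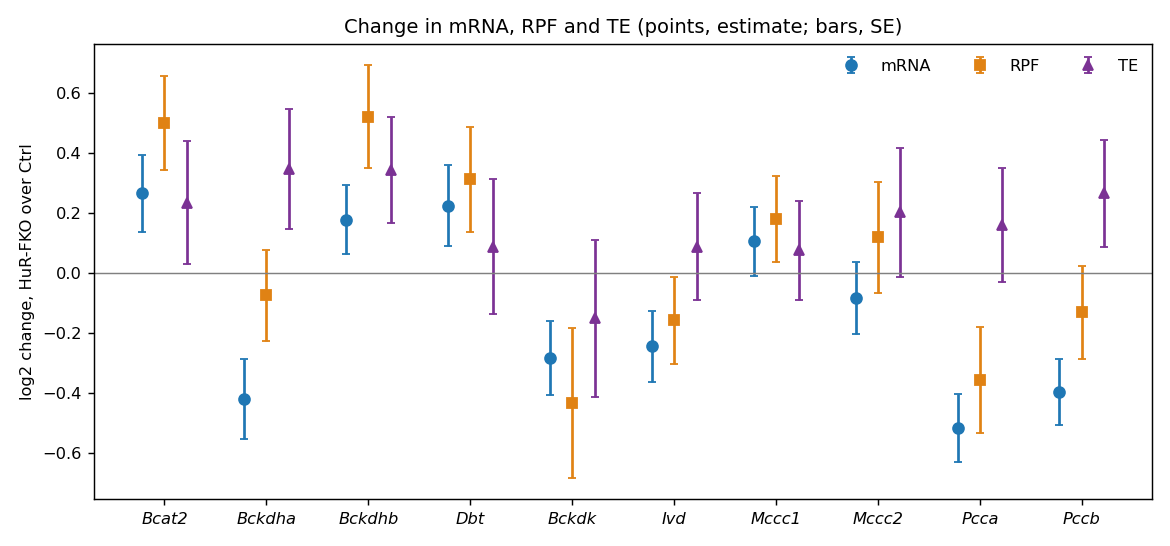
Log2 change of each enzyme, HuR-FKO over Ctrl, in mRNA (circles), RPF (squares) and TE (triangles), with bars for the SE of the limma fit. Pcca and Pccb mRNA passed the threshold, and TE estimates were above 0 for 9 of the 10.

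Partner subunits were also set against each other within each library, where scaling between libraries cancels. The ratio of Bckdha to Bckdhb mRNA was 1.42 and 1.08 in HuR-FKO and 2.08 and 1.70 in Ctrl. In RPF the ratio was 2.14 and 2.01 in HuR-FKO and 3.34 and 2.97 in Ctrl. Bckdhb rested there on 120 and 50 reads in HuR-FKO and on 75 and 46 reads in Ctrl. The ratio was lower in each HuR-FKO library than in either Ctrl library, with a log2 difference of -0.60 in both mRNA and RPF (-0.80 to -0.40 and -0.68 to -0.51 with 1 pool left out). With 2 libraries a group, the exact permutation test gave p = 0.33 for each, two-sided, which is the smallest value the design allows. The levels of Bckdhb and Bcat2 rest on transcript models with coding sequences of 969 and 1062 bases, where the longest in GENCODE M21 have 1173 and 1182, so a ratio between genes depends on the model while a difference between genotypes keeps the same model.

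The ratio of Bckdk to the geometric mean of Bckdha, Bckdhb and Dbt was 0.430 and 0.525 in HuR-FKO mRNA and 0.541 and 0.616 in Ctrl mRNA, a log2 difference of -0.28 (-0.13 without HuR-FKO replicate 1, -0.42 with the other HuR-FKO library left out instead). In RPF it was 0.233 and 0.174 in HuR-FKO and 0.327 and 0.330 in Ctrl, a log2 difference of -0.69 (-0.89 to -0.49 with 1 pool left out). Bckdk rested there on 51 and 15 reads in HuR-FKO and on 55 and 31 reads in Ctrl, so counting error in these ratios is large. The ratio was lower in each HuR-FKO library than in either Ctrl library in both assays (exact permutation p = 0.33 in each assay, the smallest possible).

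The ratio of Dbt to the E1 pair did not overlap in mRNA, at 0.440 and 0.462 in HuR-FKO and 0.393 and 0.319 in Ctrl, but did in RPF, at 0.921 and 0.859 in HuR-FKO and 0.882 and 0.793 in Ctrl. Pcca to Pccb was 0.397 and 0.402 in HuR-FKO mRNA and 0.432 and 0.441 in Ctrl mRNA, a log2 difference of -0.12. The ratio was lower in both HuR-FKO libraries, by less than either subunit's own mRNA change. In RPF, Pcca to Pccb was 0.301 and 0.413 in HuR-FKO and 0.392 and 0.437 in Ctrl, which overlapped. Mccc1 to Mccc2 was 1.66 and 1.58 in HuR-FKO mRNA and 1.40 and 1.44 in Ctrl mRNA, a log2 difference of 0.19, and overlapped in RPF.

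**Figure D3:**
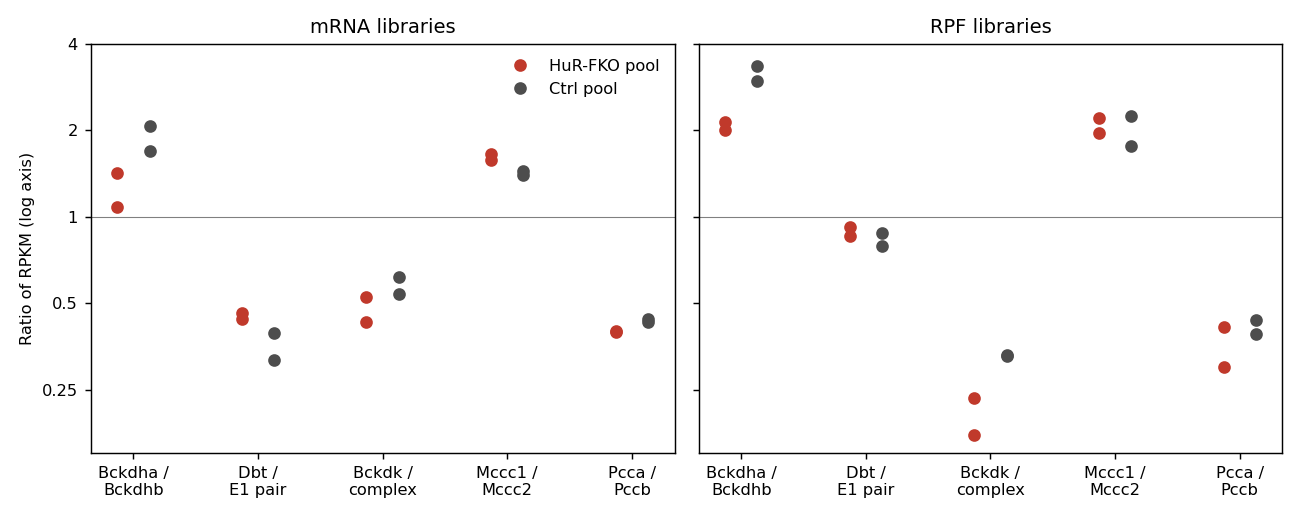
Ratios of RPKM between partner subunits in each library, on a log axis, for mRNA (left) and RPF (right), with a point per pool and a line at 1. The E1 pair is the geometric mean of Bckdha and Bckdhb, and the complex that of Bckdha, Bckdhb and Dbt. Bckdha to Bckdhb and Bckdk to the complex lay lower in HuR-FKO pools in both panels.

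No member of the leucine branch passed in mRNA, RPF or TE. Ivd, the isovaleryl-CoA dehydrogenase, had 186 and 177 RPKM in HuR-FKO mRNA and 230 and 201 RPKM in Ctrl mRNA (log2 change -0.24 ± 0.12 SE, adjusted p = 0.196). In RPF it had 243 and 279 RPKM in HuR-FKO and 297 and 284 RPKM in Ctrl (-0.16 ± 0.15, adjusted p = 0.744). With 1 pool left out the changes ranged from -0.34 to -0.15 in mRNA and from -0.26 to -0.06 in RPF. Its HuR-FKO libraries were below the Ctrl libraries in both assays, by a narrow margin in RPF.

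Mccc1, the biotin-carrying alpha subunit of methylcrotonyl-CoA carboxylase, had 148 and 147 RPKM in HuR-FKO mRNA and 145 and 130 RPKM in Ctrl mRNA (log2 change 0.11 ± 0.11 SE, adjusted p = 0.565). In RPF it had 213 and 211 RPKM in HuR-FKO and 191 and 183 RPKM in Ctrl (0.18 ± 0.14, adjusted p = 0.709). Mccc2, the beta subunit, had 89.5 and 92.8 RPKM in HuR-FKO mRNA and 103 and 90.2 RPKM in Ctrl mRNA, which overlapped (-0.08 ± 0.12, adjusted p = 0.673). Its RPF levels, 109 and 95.6 RPKM in HuR-FKO and 84.6 and 104 RPKM in Ctrl, overlapped as well (0.12 ± 0.18, adjusted p = 0.865). Neither subunit of this carboxylase passed in any comparison, where both subunits of the propionyl-CoA carboxylase did in mRNA, and the difference between the carboxylases was not tested.

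TE was also compared between genes, as the log2 ratio of RPF to mRNA less that of the median gene in the same pool. In Ctrl it was highest for Dbt (0.95 ± 0.07 SD, n = 2 pools), Mccc1 (0.72 ± 0.09) and Ivd (0.71 ± 0.12), the 86.6th, 79.9th and 79.5th percentiles of all genes. It was lowest for Bckdk (-0.66 ± 0.12) and Bckdhb (-0.64 ± 0.07), the 23.8th and 24.5th percentiles. The Bckdhb model has 969 coding bases, where the longest has 1173, so its place in this order may depend on the model. In all 4 pools, 7 of the 10 enzymes were above the median gene, a share that was not counted over all genes. Bckdhb and Bckdk were below the median gene in all 4 pools. The kinase thus carried fewer footprints per mRNA than every subunit of its complex other than Bckdhb in Ctrl.

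Between genotypes, TE relative to the median gene was higher in HuR-FKO without overlap for 6 enzymes, against 18.3% of all genes, with Bckdha at 0.39 and 0.61 in HuR-FKO and 0.08 and 0.10 in Ctrl, and Bckdhb at -0.20 and -0.28 in HuR-FKO and -0.59 and -0.70 in Ctrl. The TE changes before this centring were 0.35 ± 0.20 for Bckdha and 0.34 ± 0.18 for Bckdhb (SE, adjusted p = 0.671 and 0.644), and the estimate was above 0 for 9 of the 10, with Bckdk at -0.15 ± 0.26, and for 41.8% of all genes. None of the TE changes passed, and these values share the libraries of the mRNA and RPF comparisons and add no separate evidence.

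**Figure D4:**
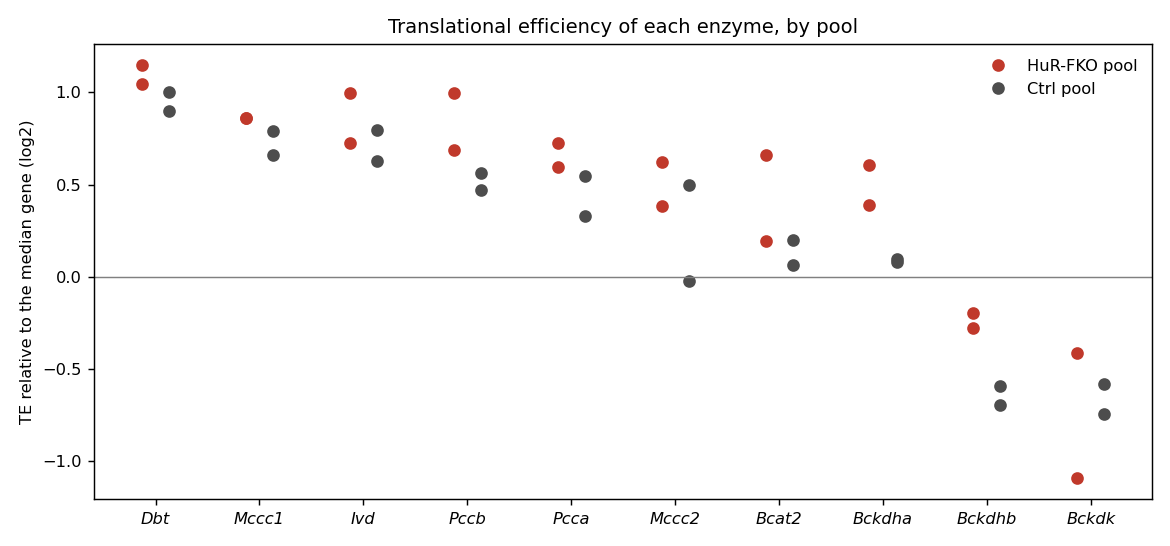
TE of each enzyme relative to the median gene (log2), with a point per pool, ordered by the Ctrl mean. Dbt lay near 1 in every pool, while Bckdhb and Bckdk lay below 0.

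The bases around the start codon are shown for the 2 enzymes with the highest and the 2 with the lowest TE in Ctrl, from their GENCODE M21 transcripts, with the start codon in capitals.
Dbt: ccggagtaaaATGgctgcag
Mccc1: cagcgcggagATGgcggcgg
Bckdhb: aactcagaagATGaacctct
Bckdk: tagcaggacaATGatactga
A purine 3 bases before the start codon and a G directly after it, the bases known to favour initiation, were both present in Dbt and Mccc1, and the G was absent in Bckdhb and Bckdk. Over the 10 enzymes 6 had both, as did 47.3% of 8094 measured genes with at least 10 bases before the start codon. An ATG upstream in the 5′ UTR was present in 5 of the 10 and in 47.6% of these genes, and Bckdhb and Bckdk each had 1 while Dbt and Mccc1 had none. The Bckdhb and Bcat2 models have coding sequences of 969 and 1062 bases, where the longest in GENCODE M21 have 1173 and 1182. Their start codons and upstream ATGs, and so the counts over the 10 enzymes, depend on the model. The relation to TE was not tested.

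Of 36 other genes listed for BCAA uptake, breakdown, cofactors and regulation, 35 were measured. In mRNA 1 rose, 3 fell and 31 did not pass, where 14.0% of all genes passed. In RPF 1 fell, where 0.444% of all genes passed, and in TE none passed. Acly, an enzyme of fatty acid synthesis, was 1 of the 3 that fell in mRNA and the 1 that fell in RPF. It is counted again in the fatty acid synthesis list below. The median log2 changes were -0.03 in mRNA, 0.03 in RPF and 0.16 in TE. Slc43a1, a transporter of large neutral amino acids, rose in mRNA, with 34.8 and 32.0 RPKM in HuR-FKO against 22.3 and 17.01 RPKM in Ctrl (log2 change 0.74 ± 0.15 SE, adjusted p = 0.0116). Its RPF levels of 33.6 and 29.7 RPKM in HuR-FKO and 20.1 and 15.6 RPKM in Ctrl did not overlap (0.80 ± 0.26, adjusted p = 0.324).

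Auh, the hydratase that follows the Mccc1 and Mccc2 carboxylase in leucine breakdown, fell in mRNA, with 60.6 and 57.5 RPKM in HuR-FKO against 83.9 and 82.7 RPKM in Ctrl (log2 change -0.49 ± 0.11 SE, adjusted p = 0.0210). Its RPF change was -0.06 ± 0.20 (adjusted p = 0.937). Mmab, which makes the cobalamin cofactor of methylmalonyl-CoA mutase downstream of Pcca and Pccb, fell in mRNA, with 17.7 and 16.9 RPKM in HuR-FKO against 28.3 and 29.2 RPKM in Ctrl (-0.70 ± 0.12, adjusted p = 0.00631). Its RPF libraries, 9.62 and 10.5 RPKM in HuR-FKO and 15.8 and 9.69 RPKM in Ctrl, overlapped. Of the other steps after Pcca and Pccb, Mcee, the epimerase, and Mut, the mutase, had mRNA changes of -0.27 ± 0.13 and -0.27 ± 0.12 (adjusted p = 0.177 and 0.146). The mRNA calls of Slc43a1, Auh and Mmab each ended without HuR-FKO replicate 1 (adjusted p = 0.117, 0.102 and 0.0606), without HuR-FKO replicate 2 (adjusted p = 0.0917, 0.150 and 0.0771) and in the shared fit (adjusted p = 0.101, 0.118 and 0.171), and that of Auh after correction for length and G+C content (adjusted p = 0.0663).

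Acly, the ATP-citrate lyase of fatty acid synthesis, which Bckdk and Ppm1k are known to act on in rodent liver, fell in both assays. It had 136 and 138 RPKM in HuR-FKO mRNA against 507 and 588 RPKM in Ctrl mRNA (log2 change -1.99 ± 0.12 SE, adjusted p = 2.31e-05), and 216 and 190 RPKM in HuR-FKO RPF against 522 and 766 RPKM in Ctrl RPF (-1.64 ± 0.19, adjusted p = 0.0137). The RPF call ended without HuR-FKO replicate 2 (-1.55, adjusted p = 0.0627) and without the mean-dependent prior (adjusted p = 0.232). Dld, the E3 subunit, had an mRNA change of -0.20 ± 0.11 (adjusted p = 0.247), and Ppm1k, the phosphatase, 0.20 ± 0.22 in mRNA (adjusted p = 0.565) and -0.57 ± 0.30 in RPF (adjusted p = 0.553).

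**Figure D5:**
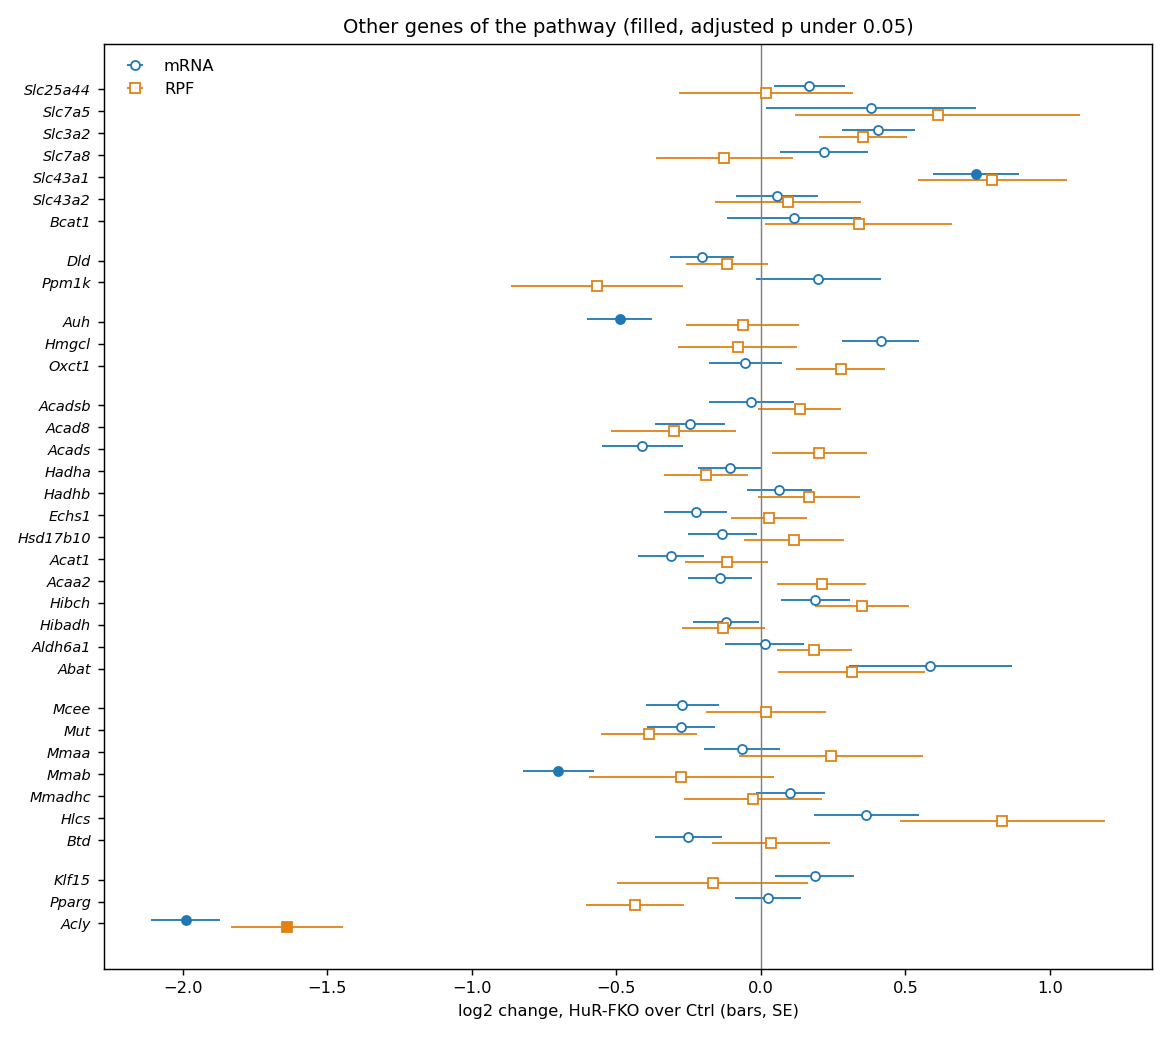
Log2 change, HuR-FKO over Ctrl, of the 35 other listed genes in mRNA (circles) and RPF (squares), grouped by step, with bars for the SE and filled symbols for an adjusted p under 0.05. Slc43a1 lay above 0 and Auh, Mmab and Acly below it, and the remaining symbols are open.

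Lists of neighbouring pathways were counted in the same fit. Over all genes, 6.54% passed in the lower direction in mRNA. Of 17 citrate cycle genes 2 fell in mRNA, with a median log2 change of -0.21, and of 18 fatty acid oxidation genes 1 fell, with a median of -0.07. Of 12 fatty acid synthesis genes 9 fell and 1 rose in mRNA, with a median of -1.11, and 6 fell in RPF, with a median of -0.98. The 10 BCAA enzymes, with 2 lower and a median of -0.16 in mRNA, stood nearer to the citrate cycle and fatty acid oxidation lists in these counts, and no test of a difference between lists was made. Across the 8 libraries, centred within assay, the genes most like the mean of the 10 enzymes were Zbtb7a (r = 0.944), Ier5 (r = 0.929), Flrt3 (r = 0.914), Ly86 (r = 0.899) and 1600014C10Rik (r = 0.898). These are the top of a ranking over all other genes on 8 libraries of the same 4 pools, given as a description.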

How the data were processed

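The authors deposited RPKM values, coding reads scaled by coding length and library total, for 8562 genes in 8 libraries, all above 1 RPKM. Upstream tools in the submitters' processing notes are cutadapt (1.8.3), TopHat2 (2.0.9) and Bowtie (1.0.0). For build, annotation and counting program, the entry is: not given in the sources used here. Columns of the authors' group means and ratios between genotypes in the same table were not used. Reads were recovered with GENCODE M21 coding lengths (8245 genes, 98.4% with whole reads in every library, tolerance 0.001 read), giving a median of 244 to 366 reads per gene for mRNA and 16 to 40 for RPF. PCR reads are not independent molecules, so counting intervals understate the error.

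Tests used limma 3.58.1 (R 4.3.3, eBayes with trend) on log2(RPKM + 1), a scale that compresses the change of low genes, with 2 HuR-FKO against 2 Ctrl libraries per assay, and for TE the interaction of genotype and assay over 8 libraries. A filter at a mean of 1 RPKM removed no gene. P-values were two-sided and Benjamini-Hochberg adjusted over all genes (threshold 0.05). Ratios between genes used an exact permutation test, whose smallest p is 0.33. The mRNA and RPF libraries of a pool come from the same mice and so pair by design. Their deviations from the group mean correlated at r = 0.05 across genes in HuR-FKO and in Ctrl.

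Scripts were tested on simulated data. The members and lists were chosen with earlier results of these data known. Named are the 10 members, other pathway genes past the threshold with up to 6 that are not (picked for their role), and the 5 genes most like the members. Alternatives were a pseudocount of 0.1, omission of the filter, a minimum mean of 5 RPKM, quantile normalization, median ratio scaling, a replicate or pool block, eBayes without trend, voom on recovered reads, correction for transcript length and G+C (splines, 4 degrees of freedom), a fit shared by 8 libraries, and omission of each pool.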

Additional observations from a re-analysis of the deposited data

Results flagged for a closer look

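Among all genes, 1 had a different change in RPF than in mRNA by the interaction test. It is Stk38, a kinase outside the BCAA pathway named after its values were seen, with 283 and 276 RPKM in HuR-FKO against 56.0 and 53.4 RPKM in Ctrl in mRNA, and 28.9 and 32.3 RPKM in HuR-FKO against 58.3 and 39.6 RPKM in Ctrl in RPF. Its TE change was -2.97 ± 0.26 (SE, limma, adjusted p = 0.00625), and it did not pass when any 1 pool was left out.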

How the results depend on the processing

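Of 410 values of the 10 enzymes under the alternatives, 389 kept their direction and their side of the threshold, 9 lost and 4 gained the threshold, and 8 reversed. All 9 losses were of the Pcca and Pccb mRNA calls, the only 2 that passed in the fit reported. Omission of the filter removed no gene and repeated that fit. The block, the omission of the mean-dependent prior and the shared fit kept the same estimates, so they could not reverse a direction. The causes were not tested. Of the 10, the number passing in mRNA was 2 in the fit reported, 1 with quantile normalization, 1 without the mean-dependent prior, 0 in the fit shared by 8 libraries, and 0 to 3 with 1 pool left out. In all genes, 642 were higher and 560 lower in HuR-FKO mRNA, against 150 and 104 in the shared fit and 131 to 925 and 95 to 717 with 1 pool left out. In RPF 28 were higher and 10 lower, against 4 and 0 without the mean-dependent prior, 95 and 73 with voom, 52 and 36 after correction for length and G+C, 93 and 109 in the shared fit, and 11 to 63 and 3 to 44 with 1 pool left out, while median ratio scaling gave 6 lower. In TE, where 1 gene was lower, voom gave 2 and leaving out any pool gave 0.

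Replicate numbers across genotypes name pools of different mice, and deviations of same-numbered libraries correlated at r = 0.15 in mRNA and -0.005 in RPF. With the replicate number as a block, 1125 genes were higher and 1031 lower in mRNA and 73 were higher and 67 lower in RPF, and 3 of the 10 enzymes passed in mRNA. With the pool as a block, the TE counts were those of the fit without it.

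With 1 pool left out, log2 changes that crossed 0 ranged from -0.181 to 0.0159 (Mccc2), in mRNA. In RPF they were -0.176 to 0.0283 (Bckdha), -0.0255 to 0.265 (Mccc2), -0.270 to 0.00882 (Pccb), -0.151 to 0.0266 (Auh) and -0.602 to 0.0513 (Mmab), and in TE -0.000332 to 0.469 (Bcat2), -0.489 to 0.186 (Bckdk), -0.0505 to 0.225 (Ivd) and -0.0414 to 0.446 (Mccc2). Differences in log2 ratio in RPF ranged from -0.11 to 0.23 for Mccc1 to Mccc2 and from -0.453 to 0.000698 for Pcca to Pccb. RPF libraries were shallower than mRNA libraries, and an enzyme that did not pass is not shown to be unchanged.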
